A study of Mus musculus with 2 samples.

Results

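The SLAM receptors and their adaptor SAP were compared between 2 kinds of T cell sorted from lymph nodes of mice, on 1 array each. The set was named by 7 gene symbols, Slamf1, Slamf6, Slamf7, Ly9, Cd48, Cd84 and Sh2d1a, and its members were the probes of the deposited value table that the platform annotation gives to these symbols. It held 8 probes of 6 genes, among 11866 probes and 8116 named genes on the table, and Slamf6 was not analysed here. One library (here the NKT-labelled library) was labelled type 1 invariant NKT, T cells with a receptor of restricted diversity that recognises lipids on CD1d, and the other (the CD4-labelled library) conventional CD4 T, cells that recognise peptides on MHC class II. Both came from female mice kept free of specific pathogens, and the cells had been purified on magnetic beads or by fluorescence sorting. The sources used here do not say which method served which sample, nor the strain, the age or the number of animals, nor any treatment.

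The SLAM family are receptors of the immunoglobulin superfamily on blood cells. Most bind a copy of themselves on a neighbouring cell, and switch motifs in their cytoplasmic tails recruit the small SH2-domain adaptor SAP, the product of Sh2d1a, which brings in the kinase Fyn. In the mouse thymus, contacts between immature thymocytes through Slamf1 and Slamf6 with SAP are needed for invariant NKT cells to develop, and people and mice without SAP lack these cells.

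All values below are log2 signals of the value table unless another scale is named, and all differences are the NKT-labelled library minus the CD4-labelled library. Each group was 1 array, which leaves every value without a replicate and the groups without a test, and a difference was called when it reached 2-fold. The only measure of error was the SD, within a gene, of the log2 difference over the 2 brightest probes of 2161 genes, 0.586. It leaves out the spread between animals, between sorts and between arrays. A probe counted as detected at a log2 signal of 7.83 or more, the lowest signal with a detection p under 0.01 in the CD4-labelled library. Ranks count from the brightest of the 11866 probes. Probes differ in how well they hybridise, so a rank places a probe within its library and is not a measure of abundance against another gene.

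The labels were checked first. Cd3e, a chain of the T cell receptor complex, was bright in both libraries, at 14.44 and 14.55. At the brightest probe of each gene, 0 of 6 T cell markers differed 2-fold. Most genes did not, since 5730 of all 7278 detected genes lay within 2-fold. Cd28, a co-stimulatory receptor on that list, differed by 0.09 at its brightest probe but by 2.92 and 2.76 at its other probes. All 7 invariant NKT markers were 2-fold or more higher in the NKT-labelled library, among them Tbx21, the regulator of interferon gamma production, by 3.37. Of all genes detected in 1 or both libraries, 10.2% were. The markers had been chosen with earlier results of these data known, so this count describes the list and is no independent support for the labels. The limit given below for Slamf7 applies to Klrb1c and Il4, at 7.61 and 7.51 in the CD4-labelled library. Cd4 measured 9.61 in the CD4-labelled library and 8.997 in the other. Cd8b1, which encodes a chain of the CD8 co-receptor, measured 15.60 in the CD4-labelled library and 9.33 in the other, which goes against the label of the first. The Y-linked genes Eif2s3y and Kdm5d were chosen with their values known. Eif2s3y measured 11.55 and 8.998 and Kdm5d 9.46 and 7.61, although both samples were labelled female. The red cell gene Hba-a1 measured 9.84 in the CD4-labelled library and 16.04 in the other, where its rank was 4. Alas2 and Slc4a1, the other red cell genes measured, stood at 7.30 and 12.51 and at 7.35 and 10.42. The limit given below for Slamf7 applies to these 2. Red cell genes are not those of the T cell label of the NKT-labelled library, and liver genes, given below, were also higher in it. Groups are therefore called by their labels, and every direction depends on them.

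The 2 deposited tables also disagree for the NKT-labelled library. Across the probes of the value table, its column followed the matching non-normalized column with a Spearman rank correlation of 0.822, whereas the column of the CD4-labelled library followed its own with one of 1. The second non-normalized column, which carries the description of the sample labelled invariant NKT, followed the value column of the CD4-labelled library with 0.996. The value column of the NKT-labelled library followed the first non-normalized column with 0.823, about as closely as its own. Of the 7 invariant NKT markers, 0 differed 2-fold between the non-normalized columns, where their log2 differences ran from -0.03 to 0.21. The second non-normalized column thus does not carry the marker differences of the value table. Probes are not independent replicates, and these correlations only describe the files. Values of the non-normalized table are given for the member probes in a separate paragraph at the end of these results. For the pathway genes, only counts and a few differences from it are given, in the section on processing.

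Of the 6 genes measured, 3 were 2-fold or more higher in the NKT-labelled library and 0 were 2-fold or more lower, at the brightest probe of each gene. Slamf7 was higher by 2.03, Ly9 by 1.25 and Slamf1 by 1.13. Among all 7278 genes detected in 1 or both libraries, 10.2% reached 2-fold upwards and 11.1% reached it downwards. The median difference of these 6 was 0.82, beside -0.07 over all detected genes. A positive difference was found in 5 of the 6, beside 46.1% of all detected genes. The members had been chosen with results of these data known, so these shares describe the set and do not test it. At the level of probes, 7 of 8 had a positive difference, beside 48.3% of all probes. The 2 columns held nearly the same sorted values, so a gain in rank restates a positive difference. These 7 gained places in the ranking of the NKT-labelled library, and Cd48 lost them.

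**Figure D1:**
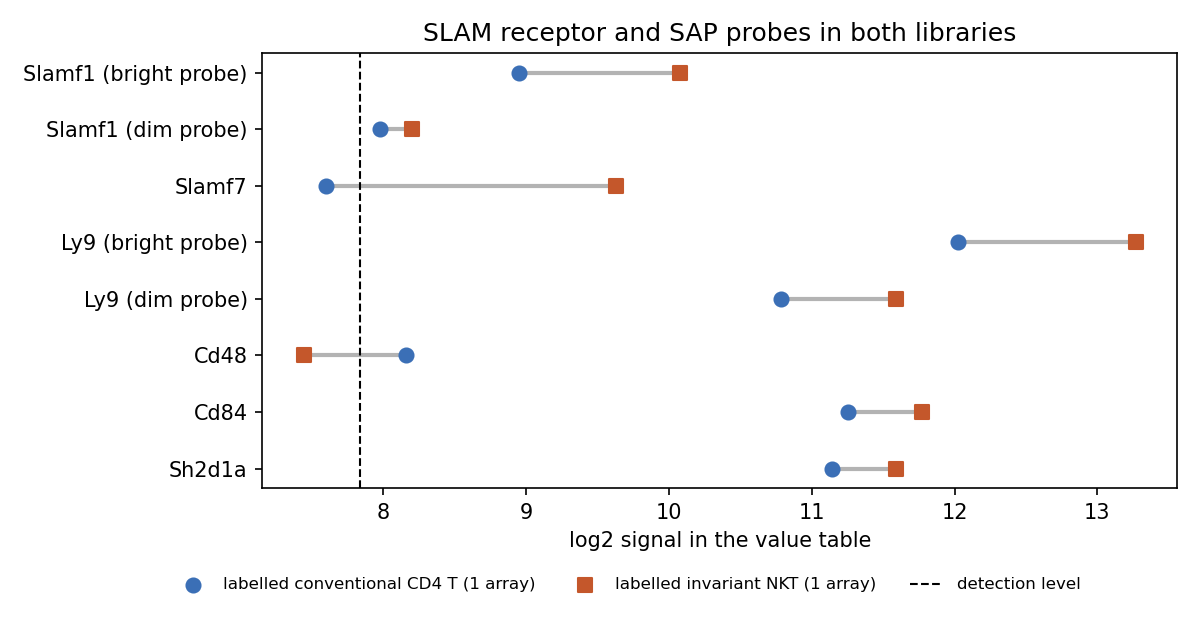
Log2 signal of each of the 8 member probes in the CD4-labelled library (circles) and in the NKT-labelled library (squares), 1 array each, with the detection level of 7.83 as a dashed line. The square lies to the right of the circle for 7 probes and to the left for Cd48, and Slamf7 and Cd48 each cross the detection level.

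Slamf1 (NCBI gene 27218) encodes CD150, a receptor that binds itself and signals through SAP and Fyn. Its bright probe measured 8.95 in the CD4-labelled library and 10.08 in the NKT-labelled library. The probe moved from rank 6185 to rank 4001, so that 47.9% and 66.3% of probes lay below it. The difference of 1.13, or 2.18-fold, was larger than the within-gene SD of 0.586. The dim probe of Slamf1 measured 7.97 and 8.20, a difference of 0.23, with ranks of 8853 and 8085. Both probes were higher in the NKT-labelled library, but they differed from each other by 0.90, a wider gap than in 76.2% of genes with 2 or more probes. With the mean of both probes the difference of Slamf1 was 0.68, which is under 2-fold, and 2 of the 6 members were then called higher.

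Ly9 (NCBI gene 17085) encodes CD229, a receptor that binds itself and that limits the number of invariant NKT cells in mice. Its bright probe measured 12.02 and 13.27 and moved from rank 1199 to rank 396. It lay in the bright part of both libraries, with 89.9% and 96.7% of probes below it. The second probe measured 10.79 and 11.59, at ranks 2740 and 1631. The differences of 1.25 and 0.80, or 2.37-fold and 1.75-fold, pointed the same way at both probes. Their gap of 0.44 was near the middle of all genes with several probes, since 49.9% had a smaller one. Of all probes on the table, 6.33% had a higher difference than the bright probe of Ly9 and 13.3% a higher one than its second probe. The mean of both probes differed by 1.02.

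Slamf7 (NCBI gene 75345) encodes CRACC, a receptor known from NK cells and plasma cells that signals through the SAP relative EAT-2 in mouse NK cells. Its 1 probe measured 7.60 in the CD4-labelled library, below the detection level, and 9.63 in the NKT-labelled library. It moved from rank 10786 to rank 4823, the widest shift among the 8 probes. Slamf7 was at least 3.47-fold higher in the NKT-labelled library, taking the detection level as the value of the dim library, and 2.09% of all probes had a higher measured difference than its 2.03. The value table itself appears limited to probes with signal in 1 or both libraries: 11756 of its 11866 probes reached the level of a detection p of 0.05 in at least 1 library. A probe below that level in one library, as Slamf7 was, had to be brighter in the other to be among those 11756, so its place on the table is no support for the difference. Of the 6 genes measured, 4 reached that level in both libraries, and Slamf7 and Cd48 in 1 only.

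Cd48 (NCBI gene 12506) encodes a receptor anchored by a lipid, without a cytoplasmic tail, that is the ligand of CD2 and of the SLAM receptor 2B4. Its 1 probe measured 8.16 in the CD4-labelled library and 7.44, below the detection level, in the NKT-labelled library. The rank went from 8223 to 11306, where 4.72% of probes lay below it. The difference of -0.72 made Cd48 the only member measured lower in the NKT-labelled library. As a bound it was at least 1.25-fold lower, which is under the 2-fold limit. Cd48 was dim in both libraries, and like Slamf7 it reached the level of a detection p of 0.05 in 1 library only. Cd2, which encodes its partner on T cells, measured 13.02 and 13.13, a difference of 0.10.

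Cd84 (NCBI gene 12523) encodes a receptor that binds itself and helps T cells adhere to B cells. Its 1 probe measured 11.26 in the CD4-labelled library and 11.77 in the other, at ranks 2048 and 1449. Sh2d1a (NCBI gene 20400) encodes SAP itself. Its 1 probe measured 11.14 and 11.59, at ranks 2201 and 1633. The differences of 0.51 for Cd84 and 0.45 for Sh2d1a were both smaller than the within-gene SD of 0.586. Both genes were well above the detection level in each library, and neither reached 2-fold, at 1.43-fold and 1.36-fold.

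**Figure D2:**
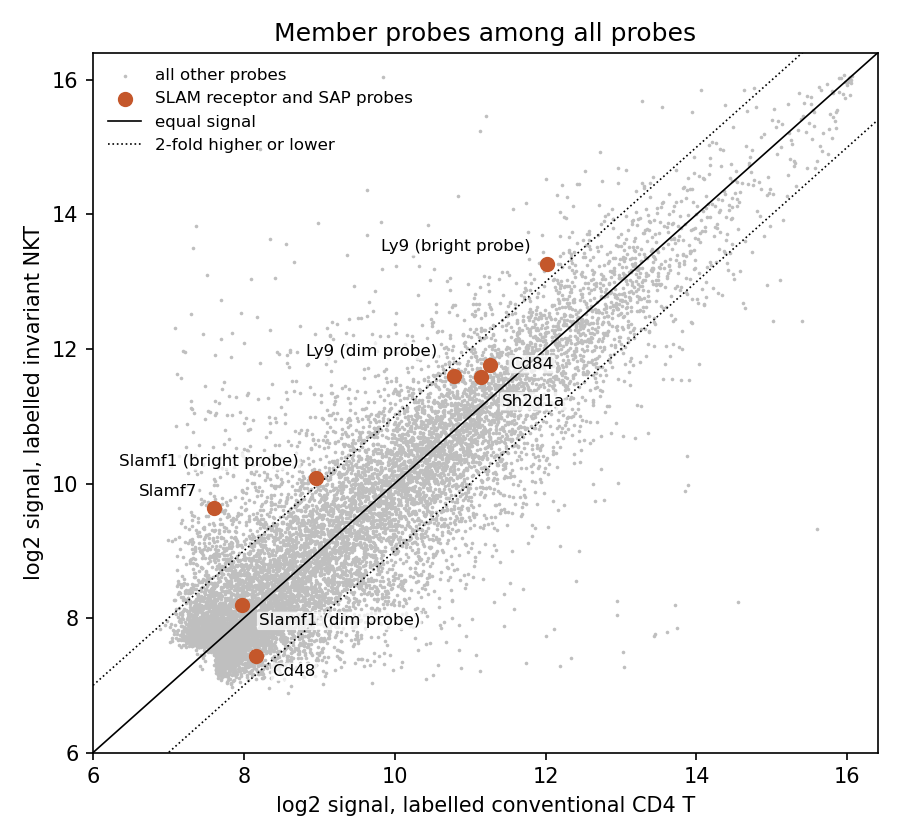
Log2 signal of every probe of the value table in the CD4-labelled library (x axis) against the NKT-labelled library (y axis), with the 8 member probes marked. The solid line is equal signal and the dotted lines are 2-fold. Slamf7 and the bright probes of Ly9 and Slamf1 lie above the upper dotted line, and Cd48 lies between the lines.

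The promoters of 2 genes called higher, Slamf7 and Slamf1, and of Cd48, which was measured lower, are shown for comparison of their sequences. Ly9, the other gene called higher, is named only. Of the 7 genes, 6 lie on chromosome 1, and Sh2d1a lies on the X chromosome. RefSeq promoter windows in GRCm38.p6, from 250 bases before to 50 bases after the start of the gene, were found for 5 of the 7. Each of the following lines gives the gene's strand 5' to 3', at chr1:171648950-171649249 on the minus strand for Slamf7, at chr1:171766882-171767181 on the plus strand for Slamf1 and at chr1:171681742-171682041 on the plus strand for Cd48. Capitals mark matches to 4 motifs on either strand: the T-box core GGTGTGA, the Runx motif TGTGGT, the Ets motif AGGAAG and the E-box CAGCTG.
Slamf7: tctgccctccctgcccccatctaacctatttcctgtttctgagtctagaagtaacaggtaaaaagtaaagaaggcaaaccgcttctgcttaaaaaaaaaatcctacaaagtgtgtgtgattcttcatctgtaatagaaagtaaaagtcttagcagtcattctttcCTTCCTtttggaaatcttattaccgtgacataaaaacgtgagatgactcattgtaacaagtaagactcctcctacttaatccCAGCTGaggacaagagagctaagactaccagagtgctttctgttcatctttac
Slamf1: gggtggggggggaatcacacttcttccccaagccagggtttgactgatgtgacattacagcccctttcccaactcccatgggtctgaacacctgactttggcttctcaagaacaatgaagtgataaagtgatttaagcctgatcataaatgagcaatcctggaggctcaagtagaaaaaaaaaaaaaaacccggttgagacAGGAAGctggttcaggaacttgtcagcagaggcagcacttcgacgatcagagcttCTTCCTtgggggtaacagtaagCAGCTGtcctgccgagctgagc
Cd48: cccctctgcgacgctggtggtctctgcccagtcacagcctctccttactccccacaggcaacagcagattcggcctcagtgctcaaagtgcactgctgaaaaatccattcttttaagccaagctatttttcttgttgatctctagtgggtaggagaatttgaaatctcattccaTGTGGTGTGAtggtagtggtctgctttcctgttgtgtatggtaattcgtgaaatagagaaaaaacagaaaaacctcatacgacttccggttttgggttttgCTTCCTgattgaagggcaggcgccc

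Counted from the first base of its window, the Slamf7 sequence held an Ets match at base 166 on the reverse strand and an E-box at base 248. The Slamf1 sequence held Ets matches at base 202 and, on the reverse strand, at base 257, and an E-box at base 279. The Cd48 sequence held a Runx match at base 175 that overlaps a T-box match at base 178, and an Ets match at base 276 on the reverse strand. The Cd84 window had a Runx match at base 206 and an Ets match at base 283 on the reverse strand, and the Slamf6 window had none of the 4. Of 32851 promoter windows of the same length in the table, 35.4% held the Ets motif, 16.8% the Runx motif, 16.3% the E-box and 3.98% the T-box core. These matches describe letters and are no evidence of binding.

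Genes that work with SLAM receptors were listed by role, with earlier results of these data known, under 29 names that include alternative names of the same genes. Of these, 17 were measured and the others were not analysed here. At 2-fold or more, 2 were higher in the NKT-labelled library, 3 were lower and 12 lay between, which is near the 10.2% and 11.1% of all detected genes. The median difference was 0.07.

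The measured kinases differed by less than 2-fold. Fyn, the kinase that SAP recruits, measured 10.25 and 10.89 at its bright probe, a difference of 0.65. Its other probe lay below the detection level in both libraries, at 7.50 and 7.73, a difference of 0.23. Prkcq, which encodes the protein kinase C theta that acts after SAP and Fyn in helper T cells, measured 11.74 and 11.01, a difference of -0.74. Csk, the inhibitor of Src family kinases, differed by 0.07. These were the 3 kinases measured.

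The phosphatases split. Ptprc, which encodes the CD45 phosphatase of all white blood cells, measured 11.04 in the CD4-labelled library and 8.62 in the other. Its second probe measured 9.29 and 7.66, so the differences were -2.42 and -1.63. Of the phosphatases that bind the tails of SLAM receptors, Ptpn6 differed by 0.59 at its bright probe and by -0.41 at the other, Ptpn11 by -0.30 and Inpp5d, which encodes the lipid phosphatase SHIP1, by 0.29. The probes of Ptpn6 pointed opposite ways, and those of Ptpn11 all pointed down, between -0.37 and -0.25.

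Downstream, the docking proteins Dok1 and Dok2, which link SLAM receptors to the Ras inhibitor RasGAP, were the 2 genes called higher. Dok2 measured 11.77 and 13.75, a difference of 1.98. Dok1 was at 7.50 in the CD4-labelled library, below the detection level, and at 9.51 in the other, and was at least 3.20-fold higher. As for Slamf7, the place of this Dok1 probe on the table is no support for the difference. The second Dok1 probe measured 7.67 and 9.26, which is the same direction. Rasa1, the gene of RasGAP, differed by 0.12.

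In the NF-kB branch, Malt1, a protease that acts in a complex with Bcl10, was lower in the NKT-labelled library, at 8.44 against 10.94, a difference of -2.49. Its partner Bcl10 differed by 0.28 and Rela by -0.36. Vav1, a guanine nucleotide exchange factor, measured 13.38 and 12.27, a difference of -1.11. It became -0.87, under 2-fold, when differences were centred on 8 housekeeping genes, of which 1 was itself 2-fold higher and 2 were 2-fold lower. Nck1, an adaptor that binds actin regulators, differed by -0.77, and Plcg2 by 0.00. Malt1 and Vav1 were each read by 1 probe.

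**Figure D3:**
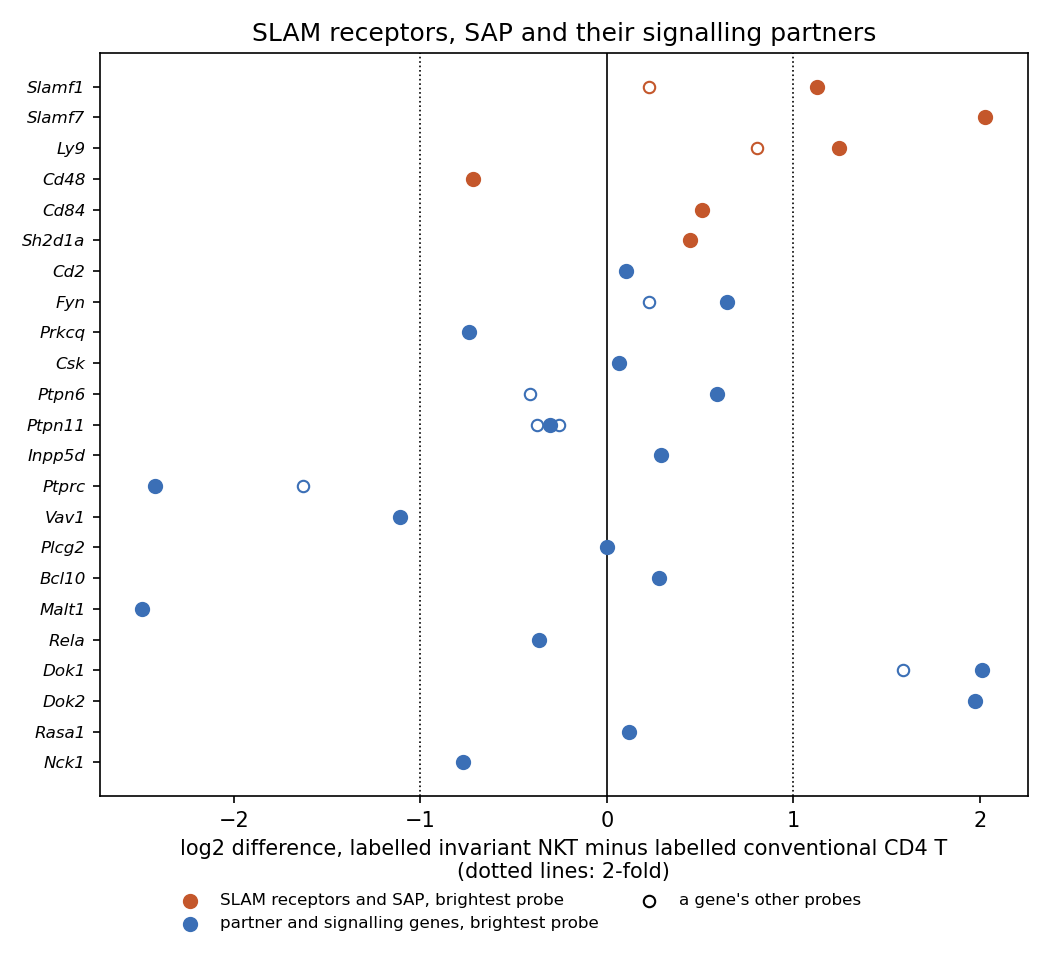
Log2 difference between the libraries for the 6 member genes (upper rows) and the 17 partner and signalling genes (lower rows). Filled points are a gene's brightest probe, open points its other probes, and dotted lines mark 2-fold. Slamf7, Ly9, Slamf1, Dok1 and Dok2 lie beyond the right dotted line and Malt1, Ptprc and Vav1 beyond the left one.

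SLAM receptors are also made by B cells, myeloid cells and NK cells, so markers of these cells were read in the same arrays. Of the B cell list, 3 of 7 genes were measured and all 3 were lower in the NKT-labelled library. Of all detected genes, 46.1% had a positive difference, so a lower value was common. Only Cd79b was lower by 2-fold, at 9.91 and 8.58. Cd79a differed by -0.46, and Cd22, at 8.02 and 7.41, was below the detection level in the NKT-labelled library. The summed linear signal of the list was 1538 in the CD4-labelled library and 781 in the other. Of the plasma cell list, 2 of 6 were measured and both were higher, neither by 2-fold, with sums of 2941 and 5410. Xbp1 gave most of it at 11.43 and 12.34. Mzb1 was at 7.55, below the detection level, and at 7.88, just above it. Of the monocyte and macrophage list, 4 of 8 were measured, with sums of 4300 and 19763. Cebpb led that list at 11.74 and 14.17, and Lyz2 measured 7.82 and 9.76 at its brighter probe but 7.97 and 7.46 at the other. Cd14 lay below the detection level in both libraries, and Ctss was lower, at 8.97 and 7.78. Of the NK cell list, 2 of 4 were measured, and the sums were 580 and 2187: Klrb1c, which invariant NKT cells share, was at 7.61 and 11.01, and Eomes at 8.59 and 6.89. Neutrophil genes had sums of 476 and 1956 over 3 of 5 genes, and red cell genes 1241 and 74606 over 3 of 4. Liver genes, listed with their values known, had sums of 1225 and 15850 over 8 of 10 genes. All 8 lay below the detection level in the CD4-labelled library and were detected in the other, with Serpina1b, which encodes an antitrypsin of the liver, at 7.09 and 12.31. The limit given above for Slamf7 applies to all 8 liver genes, so their place on the table is no support for these differences. It applies likewise to other genes of these lists that were as dim in 1 library, among them Cd22, Mzb1, Klrb1c and Eomes. The 1 measured platelet gene, Itga2b, lay below the detection level in both, and no dendritic cell gene was measured. The part of these cells in the SLAM differences was not tested. In bulk samples, fewer cells of a type and less RNA per cell cannot be told apart.

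The 2 libraries give 1 pair of values a gene, so likeness in pattern can only mean a similar pair of signals. By the distance in the 2 log2 values, the nearest named gene was Gpsm3 for Slamf1 (8.95 and 10.08, at a distance of 0.01), Ier5l for Slamf7 (7.70 and 9.62, at 0.10) and Btbd11 for Ly9 (11.93 and 13.29, at 0.09). It was Hmgn3 for Cd48, Arel1 for Cd84 and Ncbp3 for Sh2d1a, at 0.01, 0.03 and 0.03. Further genes lay in the neighbourhood: 7 lay within 0.25 of Ly9, 19 of Slamf7, 38 of Slamf1 and 167 of Cd48.

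In the non-normalized table the same 8 probes were nearly equal in both columns. Their log2 differences ran from -0.13 to 0.13, and 0 reached 2-fold. For the bright probe of Slamf1 the intensities were 526 in the first column and 513 in the second, and for the bright probe of Ly9 they were 4201 and 4263. Slamf7 had intensities of 209 and 228 with detection p-values of 0.0589 and 0.0288, so it was not detected at a p under 0.01 in either column. Cd48 had 302 and 305, with a detection p of 0.00125 in both, whereas its value-table signal fell below the detection level in the NKT-labelled library. None of the 25697 probes of that table was 2-fold apart between its columns, so the near equality was shared by the other probes. Whether the value column is that of the sample labelled invariant NKT cannot be read from the files, and each difference given above rests on the value table.

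**Figure D4:**
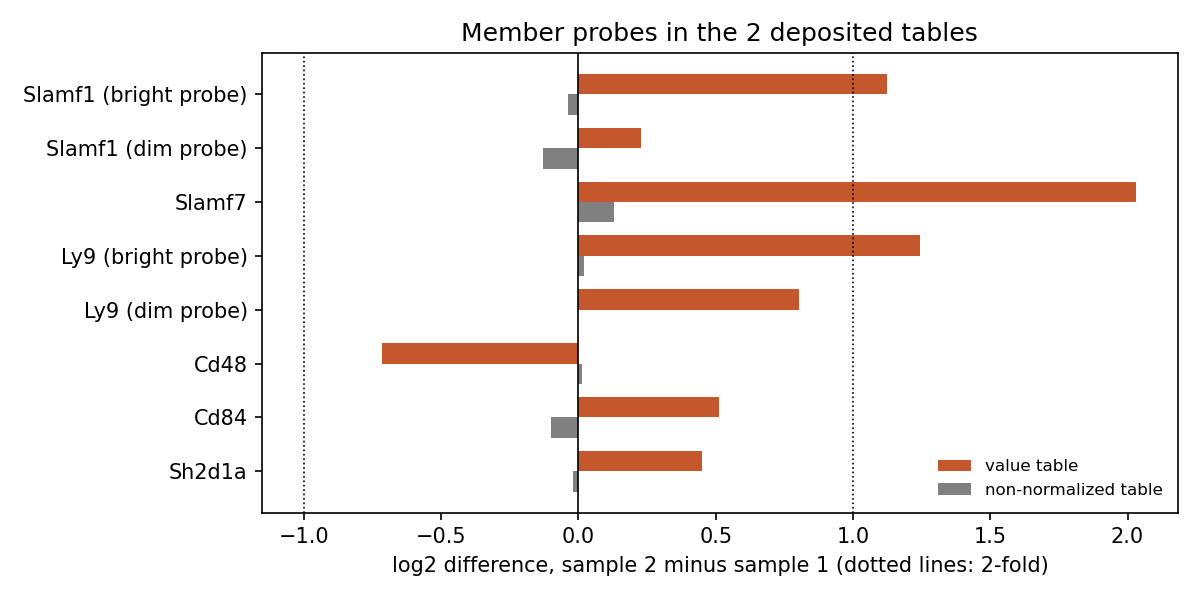
Log2 difference of each of the 8 member probes in the value table and in the non-normalized table (sample 2, labelled invariant NKT, minus sample 1, labelled conventional CD4 T), with dotted lines at 2-fold. Bars of the value table reach from -0.72 for Cd48 to 2.03 for Slamf7, and bars of the non-normalized table stay between -0.13 and 0.13.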

How the data were processed

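RNA of 2 sorted populations was measured on Illumina mouse bead arrays, 1 array each, grouped by the cell type in the labels. A QIAGEN kit served for RNA extraction and Illumina TotalPrep for biotin labelling, per the labels' protocols. The submitters' processing notes name GenomeStudio 2009.2. The authors deposited log2 values of 11866 probes, whose sorted columns were equal within 0.000251 (as quantile normalisation leaves them), with background not subtracted. The method of normalisation and the filter on probes are not stated in those sources. The authors also deposited a non-normalized table of 25697 probes, with an intensity and, per the file headers, a detection p-value for each sample. In it 36.8% and 35.6% of probes had a detection p under 0.01, and signal over background, with 1 array a group, limits the precision.

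Gene names came from the platform annotation: 11155 probes had 1 symbol, 0 several and 711 none. The brightest probe by mean log2 signal stood for a gene. Genes were called at 2-fold, since 1 array a group leaves no test. For a gene undetected in 1 library, the bound is the bright value less the dim value or the detection level, whichever is higher. The detection level comes from the first column and is an estimate for the other. The text names all members and measured pathway genes, up to 5 genes of each marker list, Cd4, Cd3e and Cd8b1, and the nearest gene to each member. Eif2s3y, Kdm5d, the liver genes and the genes flanking the SLAM cluster are additions to this rule. The members and lists were chosen with earlier results of these data known. Alternatives were another source table (neqc of limma 3.58.1 in R 4.3.3, offset 16), detection p, detection filter, bounds, mean of probes, background subtraction, centring and a 1.5-fold limit. The other computations used Python 3.11.15 with pandas 2.3.3.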

Additional observations from a re-analysis of the deposited data

How the results depend on the processing

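With the non-normalized table and neqc, 0 of the 5 members then detected were 2-fold or more higher and 0 lower, with a median difference of -0.0054, and 0 pathway genes were called in either direction. The sign turned for 2 of those 5 members and for 8 of the 16 pathway genes with a value. Among genes called before, these were Slamf1 (-0.032), Ptprc (0.25) and Dok2 (-0.0024), and the other member was Cd84 (-0.059). Slamf7 and Dok1 gave no value because they were undetected. The second non-normalized column followed the value column of the CD4-labelled library with a rank correlation of 0.996. Of its 25697 probes, 0 were 2-fold apart from the first column, so the loss of calls was all but fixed by this input. Several of the turned signs rest on differences near 0. This setting changed the input as well as the processing, so it cannot show how the calls depend on processing alone. Why the tables differ was not tested. With background subtracted, 1 member was lower (Cd48 at -2.47) and Slamf7 rose to 5.22, since both lie near the background. At a 1.5-fold limit 1 member was lower, and 4 pathway genes were higher and 5 lower. The other settings of the value table (a detection p under 0.05, no detection filter, bounds, the mean of probes, and centring on 8 housekeeping genes, whose median difference was -0.24) left 2 or 3 members called higher and 0 lower. They left 2 pathway genes called higher and 3 lower, or 2 lower with centring, where Vav1 measured -0.87. Over 6 settings of the value table, Slamf1 ranged from 0.68 to 1.57, Ly9 from 1.02 to 1.48, Cd84 from 0.51 to 0.75 and Sh2d1a from 0.45 to 0.69. No paired analysis was possible because each group was 1 array. Folds of dim genes are understated in the value table, because background remained in it.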

Other observations

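Outside the set, 10 genes that flank the SLAM genes on chromosome 1 were read, a choice added after the data were seen. They were the 5 nearest protein-coding genes on each side, in the RefSeq order, that had a probe on the value table. All 10 were detected in 1 or both libraries, as were 7278 of the 8116 named genes on that table, so this count was nearly fixed by the choice. At 2-fold or more, 0 were higher in the NKT-labelled library and 2 were lower, beside 10.2% and 11.1% of all detected genes. Their median difference was -0.37, beside -0.07 over all detected genes, with a range from -1.02 to 0.94. On the Ly9 side, Pfdn2, which encodes a subunit of the prefoldin chaperone, differed by 0.94 (12.11 and 13.05), and Arhgap30 by -0.67 (13.23 and 12.56). Alyref2, at 8.46, fell below the detection level in the NKT-labelled library and was called at its measured difference of -1.01, although its bound of -0.62 was under 2-fold. On the Slamf6 side, Vangl2, a planar polarity gene, measured 8.39 and 7.37, and its bound was -0.56. As for Slamf7, the place of Alyref2 and Vangl2 on the table is no support for their differences. Ncstn, a subunit of gamma-secretase, differed by -0.31, and Copa, a coat protein of transport vesicles, by 0.25.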
